A study of Rattus norvegicus with 10 samples.

Results

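Skeletal muscle sarcomere and energy genes were followed in mammary tumours of female Sprague-Dawley rats. A list of 41 genes of the contractile apparatus, the calcium store and the energy supply of muscle fibres was matched to the array by symbol, and 40 of them had at least 1 probe set annotated to that gene alone, among 14217 genes with such a probe set. The 40 genes were covered by 61 probe sets, and each was read from its brightest. The gene without such a row was Mylpf, the fast regulatory myosin light chain, whose current rat symbol is Myl11. Its row is given beside the list and is counted in none of the numbers on the 40 genes.

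Both groups share the carcinogen DMBA (dimethylbenzanthracene), of which each rat had swallowed 100 mg/kg on 1 occasion to raise the tumours. The final group was 5 tumours at 19 weeks of age, taken at sacrifice in the seventh week after biopsy, after 6 weeks of gavage with the olive phenol hydroxytyrosol (0.5 mg/kg a day, 5 days each week). The basal group was the same 5 tumours (66D2, 67D3, 45D3, 49I1 and 51I1) as Trucut needle biopsies of 0.7 cm by 2.5 mm, taken at 12 weeks of age, at a volume of 2 cm3 and before any treatment. The labels call the final piece total tumour, whereas the series' design calls it a Trucut sample too. No untreated tumours of 19 weeks were among the samples used here, so treatment, age, growth and way of sampling cannot be told apart. The numbers in the array titles run separately for the 2 groups, so an effect of the order of work cannot be told apart from them either.

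A skeletal muscle fibre is filled with sarcomeres, in which thick filaments of myosin slide along thin filaments of actin when calcium from the sarcoplasmic reticulum binds troponin. Fast and slow fibres use different genes for the same parts: fast fibres carry the myosin heavy chains Myh4 (type IIb), Myh1 (type IIx) and Myh2 (type IIa) with the fast troponins, and slow fibres carry Myh7 with the slow troponins. Skeletal muscle is no part of the mammary epithelium, but the rat's mammary glands lie beneath the skin, near its thin sheet of cutaneous muscle. In bulk tissue, fewer or more cells of a type and less or more RNA per cell cannot be told apart.

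The upstream 250 bases of 4 members are shown because these genes separate the tumours in the results: Acta1 and Ckm are general muscle genes, and Myh2 and Myh4 are fast myosin genes whose final signals went apart. The sequences are RefSeq's, on build GRCr8, 5′ to 3′ up to the base before the gene's start, at chr19:68784195-68784444 on the minus strand, chr1:88189211-88189460 on the plus strand, chr10:52355489-52355738 on the plus strand and chr10:52421898-52422147 on the plus strand. Capitals mark CAGCTG, an E-box that the muscle factor MyoD can bind, and the CArG box, a binding motif of serum response factor.
Acta1: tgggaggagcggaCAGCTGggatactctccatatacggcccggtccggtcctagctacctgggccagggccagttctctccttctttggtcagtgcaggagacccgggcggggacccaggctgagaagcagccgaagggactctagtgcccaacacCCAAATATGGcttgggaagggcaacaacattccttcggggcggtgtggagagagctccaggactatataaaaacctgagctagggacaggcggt
Ckm: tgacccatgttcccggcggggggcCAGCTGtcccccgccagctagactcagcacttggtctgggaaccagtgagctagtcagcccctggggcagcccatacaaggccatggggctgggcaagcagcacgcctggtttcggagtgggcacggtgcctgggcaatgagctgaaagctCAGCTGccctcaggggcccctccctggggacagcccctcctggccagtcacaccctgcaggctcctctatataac
Myh2: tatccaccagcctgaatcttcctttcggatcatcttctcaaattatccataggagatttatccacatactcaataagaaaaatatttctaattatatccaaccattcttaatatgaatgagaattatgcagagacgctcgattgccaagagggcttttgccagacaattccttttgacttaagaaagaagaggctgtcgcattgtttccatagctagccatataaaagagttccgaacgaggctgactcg
Myh4: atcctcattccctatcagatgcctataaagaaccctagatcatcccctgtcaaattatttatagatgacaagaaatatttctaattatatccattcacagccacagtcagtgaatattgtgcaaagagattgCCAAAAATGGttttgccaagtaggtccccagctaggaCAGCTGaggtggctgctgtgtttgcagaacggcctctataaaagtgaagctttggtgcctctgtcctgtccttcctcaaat
The CArG box was found once each upstream of Acta1 and Myh4. CAGCTG, which reads the same on both strands, was found 2 times upstream of Ckm and once each upstream of Acta1 and Myh4, and neither motif was in the Myh2 window. Of the 40 genes, 35 matched the promoter table (not Myl2, Tnnt3, Tnnc1, Tcap and Pdlim3). CAGCTG stood in 12 of these 35 windows, 34.3%, against 11.97% of 33469 promoters of the same length, and the CArG box in 4, 11.4%, against 1.5%. On both strands, the MEF2 site was in 6 of the 35 (17.1%, against 2.96%), CATTCC, the MCAT core that TEAD factors bind, in 8 (22.9%, against 12.06%) and TATAAA in 12 (34.3%, against 12.93%). TATAAA and the MEF2 site can overlap. A match is a run of letters and does not show a bound site.

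Skeletal muscle genes stood out in the final arrays of 3 tumours, most in 67D3 and 66D2 and least in 49I1. They were mostly dim in the final arrays of 45D3 and 51I1 and in all 5 basal arrays, Myh1 being bright in every array. The values are log2 RMA signals, in which 1 unit is a doubling of hybridisation signal. Against the bacterial spike-in BioB, which the study used for the sensitivity of its arrays and which had array medians between 7.87 and 8.55, 15, 27, 2, 6 and 2 of the 40 genes were above it in the final arrays of 66D2, 67D3, 45D3, 49I1 and 51I1, against 1, 2, 2, 1 and 1 in the basal arrays. Over all genes the share above BioB was between 41.6% and 45.1% in final arrays and between 33.0% and 44.7% in basal arrays. The genes above BioB in basal arrays were Myh1 in all 5, Des in 67D3 and Acta1 in 45D3. In total 28 of the 40 genes exceeded BioB in at least 1 array. The 12 that never did include all 6 slow fibre genes (Myh7, Myl2, Myl3, Tnnt1, Tnni1 and Tnnc1), together with Neb, Myom1, Capn3, Ryr1, Cacna1s and Trdn. Different probe sets differ in brightness, so this does not rank slow below fast transcripts.

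**Figure D1:**
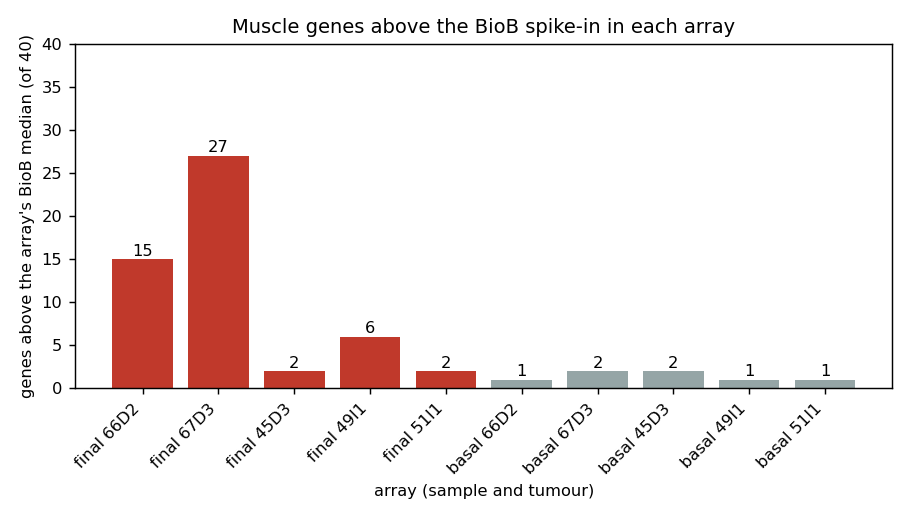
Number of the 40 muscle genes (y axis) whose log2 signal exceeded the median of the 6 BioB probe sets on the same array, for the final arrays (red) and the basal arrays (grey) of the 5 tumours (x axis). The final arrays of 67D3, 66D2 and 49I1 hold 27, 15 and 6 such genes, and the other 7 arrays hold 1 or 2.

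Within single tumours, the final signal exceeded the basal signal by more than 1 in 39 of 40 genes in 67D3 (3.63% of all genes did so), in 33 in 66D2 (3.64%), in 24 in 49I1 (1.55%), in 3 in 51I1 (4.75%) and in 0 in 45D3 (1.52%). The median difference over the 40 genes was 4.67 in 67D3, 2.52 in 66D2, 1.14 in 49I1, 0.18 in 51I1 and 0.17 in 45D3, where the median over all genes lay between -0.05 and 0.03. The 3 genes in 51I1 were Capn3, Pdlim3 and Neb, the last on its brightest probe set alone. No member was lower by more than 1 in any tumour. Because many basal signals lie in the dim range, values were also held at a dim cutoff of 5.14, below which 40% of all probe sets fall by their mean. So held, 35, 28, 15, 2 and 0 genes exceeded 1 in 67D3, 66D2, 49I1, 51I1 and 45D3.

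**Figure D2:**
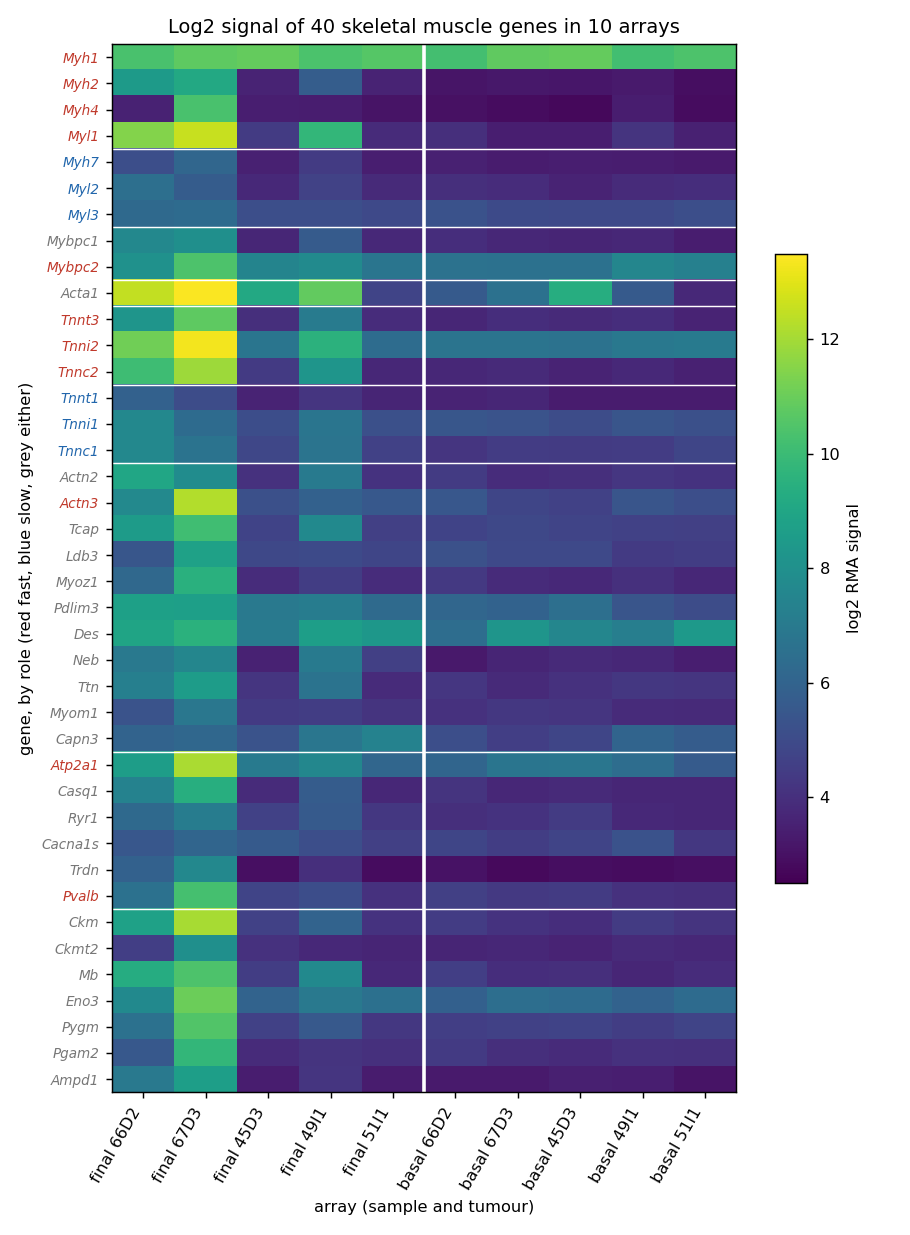
Log2 RMA signal (colour) of the 40 genes (rows, grouped by role, with fast fibre genes in red, slow in blue and those of either type in grey) in the 5 final and the 5 basal arrays (columns). The final columns of 67D3, 66D2 and 49I1 stand out, Myh1 is bright in all 10 columns, and Acta1 is bright in both columns of 45D3.

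Averaged over the 5 tumours, the 40 genes had a median difference of 1.76 between final and basal arrays, with an SD over tumours of 1.90, against -0.01 over all genes, and all 40 means were higher in final arrays, against 46.7% of all genes. The mean over tumours rests on unlike tumours: without 67D3 the median over the 40 genes was 0.97. No gene passed an adjusted p of 0.05 in the limma fit with the tumour as a block, which tested 18625 probe sets (0% called), and the smallest adjusted p among members was 0.413 (Pdlim3 and Capn3). With no filter on dim probe sets, so that every member was tested, 27 of 40 were higher at an unadjusted p under 0.05 and 0 lower, where 3% of all probe sets were higher and 4.34% lower, and 0 passed after adjustment (smallest adjusted p = 0.401 in limma). That count was 10 without 66D2 and 15 without 49I1. The filter kept 23 of the 40 genes, of which 14 were higher at an unadjusted p under 0.05 (3.43% of all probe sets), but 13 of the 23 had basal means below the cutoff and were kept through their final signals, so this second count is not read as support. It was 6 without 66D2 and 5 without 49I1. In all 5 tumours the final signal was the higher one for 19 of the 40 genes, against 3.37% of all genes, and for 1 gene, Myh2, every final array lay above every basal array, against 0.134%. Only 11 and 10 of the 40 genes exceeded the dim cutoff in the final arrays of 45D3 and 51I1. Most of the 19 genes were dim there. Myh2 itself had 3.59 and 3.58 in these arrays, below the cutoff, as were all its basal signals.

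Among the fast myosin genes, the essential light chain was high in the final arrays of the 3 tumours. The myosin heavy chain of type IIa was high in those of 66D2 and 67D3 and a little above the dim cutoff in that of 49I1, while the type IIb chain was bright in 1 array. Per group, values are given in the order 66D2, 67D3, 45D3, 49I1 and 51I1. Myl1, the fast essential light chain, had log2 signals of 11.44, 12.58, 4.42, 9.76 and 3.84 in final arrays, against 4.0, 3.43, 3.42, 4.14 and 3.51 in basal arrays. The basal signals were all dim, and 45D3 and 51I1 stayed near them in final arrays, so the groups overlapped. Its mean was 8.41 ± 4.04 in final and 3.70 ± 0.34 in basal arrays (SD, n = 5 each), a log2 difference of 4.71 (SE 1.36, limma adjusted p = 0.556), or 3.67 with dim values held at the cutoff. The fast regulatory light chain, on the row named Myl11, had 10.77, 12.21, 4.98, 8.74 and 3.98 in final arrays, against 3.84, 3.76, 3.87, 4.44 and 3.73 in basal arrays. This is the same division of tumours, with 66D2, 67D3 and 49I1 above 8 and the final arrays of 45D3 and 51I1 below 5.

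Myh2, the type IIa heavy chain, had log2 signals of 8.48, 9.14, 3.59, 5.74 and 3.58 in final arrays, against 3.10, 3.20, 3.16, 3.29 and 2.89 in basal arrays. Its mean difference was 2.98 (limma without the filter, SE 0.89, adjusted p = 0.59), and 1.59 with dim values held at the cutoff, since all basal signals and those of 45D3 and 51I1 at the end lay below it. Myh4, the type IIb heavy chain of the fastest fibres, had 3.54, 10.34, 3.42, 3.39 and 3.10 in final arrays, against 2.99, 2.86, 2.75, 3.37 and 2.85 in basal arrays. Only the final array of 67D3 exceeded the dim cutoff, and its signal there lay 7.48 above its own biopsy, whereas Myh4 differed by 0.54 in 66D2, where Myh2 differed by 5.38. In 49I1 the 2 differences were 0.03 for Myh4 and 2.45 for Myh2. A probe set annotated to Myh2, Myh1 and Myh8 together had 8.72, 10.19, 3.47, 7.12 and 3.50 in final arrays, against 2.94, 3.25, 3.43, 3.29 and 3.18 in basal arrays, and no single gene can be named from it.

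The third fast heavy chain, Myh1 of type IIx, did not follow the other members. Its brightest probe set had 10.34, 10.79, 10.91, 10.38 and 10.60 in final arrays, against 10.20, 10.81, 10.88, 10.16 and 10.41 in basal arrays, a difference of 0.11 (SE 0.09, limma adjusted p = 0.763). The correlation of Myh1 with the median of the other members was 0.10 over the 10 arrays, the lowest of the 40 genes, and all 5 of its probe sets lay between -0.09 and 0.09 against the median of the members. Myh1 is bright in biopsies where Myh2, Myh4, Myl1 and the fast troponins T and C are below the dim cutoff, and what its probe sets hybridise to was not tested.

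**Figure D3:**
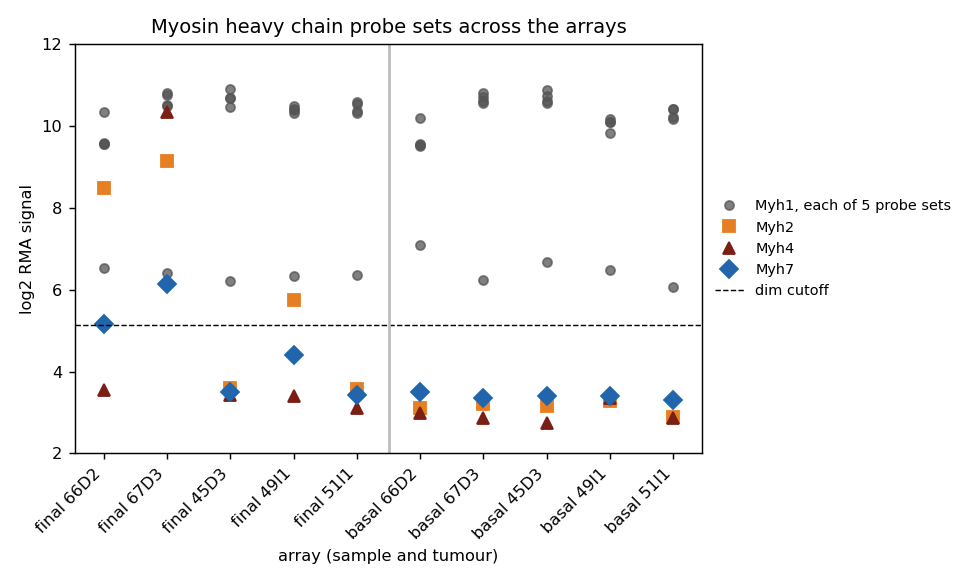
Log2 RMA signal (y axis) of the 5 probe sets annotated to Myh1 (grey) and of the probe sets used for Myh2, Myh4 and Myh7 in the final and basal arrays (x axis), with the dim cutoff of 5.14 as a dashed line. The Myh1 probe sets hold their level in all 10 arrays, and Myh4 is high in the final array of 67D3. Myh2 is high in the final arrays of 66D2 and 67D3 and a little above the cutoff in that of 49I1.

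The slow myosin genes were dim, with smaller differences. Myh7, the slow heavy chain, had 5.16, 6.14, 3.50, 4.40 and 3.42 in final arrays, against 3.49, 3.36, 3.40, 3.40 and 3.31 in basal arrays, so it exceeded the dim cutoff in the final arrays of 66D2 and 67D3 alone. Myl2, the slow regulatory light chain, which is also a light chain of the heart, had 6.53, 5.70, 3.78, 4.67 and 3.81 in final arrays, against 4.0, 3.88, 3.61, 3.84 and 3.94 in basal arrays. Here 66D2 was the highest array and 67D3 came second. Myl3, the slow essential light chain and the brightest of this role, had 6.24, 6.34, 5.13, 5.13 and 4.91 in final arrays, against 5.26, 4.95, 4.92, 4.92 and 5.13 in basal arrays, a difference of 0.51 (SE 0.24, limma adjusted p = 0.649). Only 66D2 and 67D3 exceeded the basal range, and without 67D3 the difference was 0.29.

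Myosin-binding protein C stiffens the thick filament. Its fast form Mybpc2 had 8.08, 10.43, 7.48, 7.75 and 6.79 in final arrays, against 6.66, 6.60, 6.61, 7.57 and 7.31 in basal arrays, with 67D3 far above the rest and the final array of 51I1 inside the basal range. The other form, Mybpc1, differed by 3.70, 4.26, 0.04, 1.91 and 0.39 in the 5 tumours and had a basal mean of 3.68, below the cutoff.

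On the thin filament, Acta1, the skeletal muscle actin, had 12.49, 13.44, 9.14, 10.85 and 4.75 in final arrays, against 5.61, 6.61, 9.35, 5.60 and 3.76 in basal arrays. In 66D2, 67D3 and 49I1 the final signal exceeded the biopsy by 6.88, 6.82 and 5.25. In 45D3 both samples were bright and differed by -0.21, although Myl1, Tnnc2 and Ckm lay below 5.14 in both. Among final arrays the smooth muscle genes Myh11 and Actg2 were highest in 45D3, at 11.28 and 12.17. Acta1 was higher in the final arrays of 66D2, 67D3 and 49I1 than in that of 45D3. In the biopsies Myh11 had 9.15, 11.11, 11.64, 8.95 and 7.57, and Actg2 had 10.79, 11.24, 11.57, 7.93 and 7.49. From highest to lowest, Acta1, Myh11 and Actg2 put the biopsies in the same order. Not every gene of the smooth muscle and myoepithelial list did, as Krt14 was highest in the biopsy of 51I1 (12.68). The part of smooth muscle in the Acta1 signal was not tested. Over the 5 pairs Acta1 differed by 3.95 (SE 1.16, limma adjusted p = 0.556), with 4 of 5 tumours higher.

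The troponins switch the thin filament on when calcium binds: troponin C takes up the calcium, troponin I inhibits and troponin T ties both to tropomyosin. Tnni2, the fast troponin I, had 11.10, 13.32, 6.77, 9.55 and 6.41 in final arrays, against 6.73, 6.74, 6.66, 6.91 and 6.98 in basal arrays. The basal values span a narrow range, and 45D3 and 51I1 lay within it or under it in final arrays. Tnnt3, the fast troponin T, had 8.24, 10.76, 4.0, 7.08 and 3.91 in final arrays, against 3.69, 3.93, 3.82, 3.95 and 3.57 in basal arrays. Tnnc2, the fast troponin C, had 10.09, 11.90, 4.35, 8.23 and 3.72 in final arrays, against 3.71, 3.79, 3.59, 3.78 and 3.51 in basal arrays. All 3 fast troponins put the final arrays in the order 67D3, 66D2, 49I1, with 45D3 and 51I1 at or near biopsy level. Their mean differences were 2.63 (SE 1.03), 3.01 (SE 0.99) and 3.98 (SE 1.20), with limma adjusted p of 0.61, 0.579 and 0.559. That of Tnni2 was 1.64 without 67D3.

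The slow troponins had another order. Tnni1, the slow troponin I, had 7.65, 6.34, 5.12, 6.78 and 5.19 in final arrays, against 5.45, 5.30, 5.04, 5.41 and 5.18 in basal arrays. Tnnc1, the slow and cardiac troponin C, had 7.65, 6.70, 4.86, 6.74 and 4.64 in final arrays, against 4.19, 4.44, 4.42, 4.47 and 4.78 in basal arrays. Tnnt1, the slow troponin T, had 5.90, 5.04, 3.61, 4.21 and 3.64 in final arrays, against 3.58, 3.70, 3.34, 3.36 and 3.32 in basal arrays. In all 3 the final array of 66D2 was the highest, and for Tnni1, and by a margin of hundredths for Tnnc1, 49I1 also lay above 67D3. Tnni1 differed by 0.94 (SE 0.33) and Tnnc1 by 1.66 (SE 0.52), with limma adjusted p of 0.592 and 0.579, and Tnnt1 by 1.02 (limma without the filter, SE 0.30, adjusted p = 0.585). That of Tnni1 was 0.62 without 66D2.

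**Figure D4:**
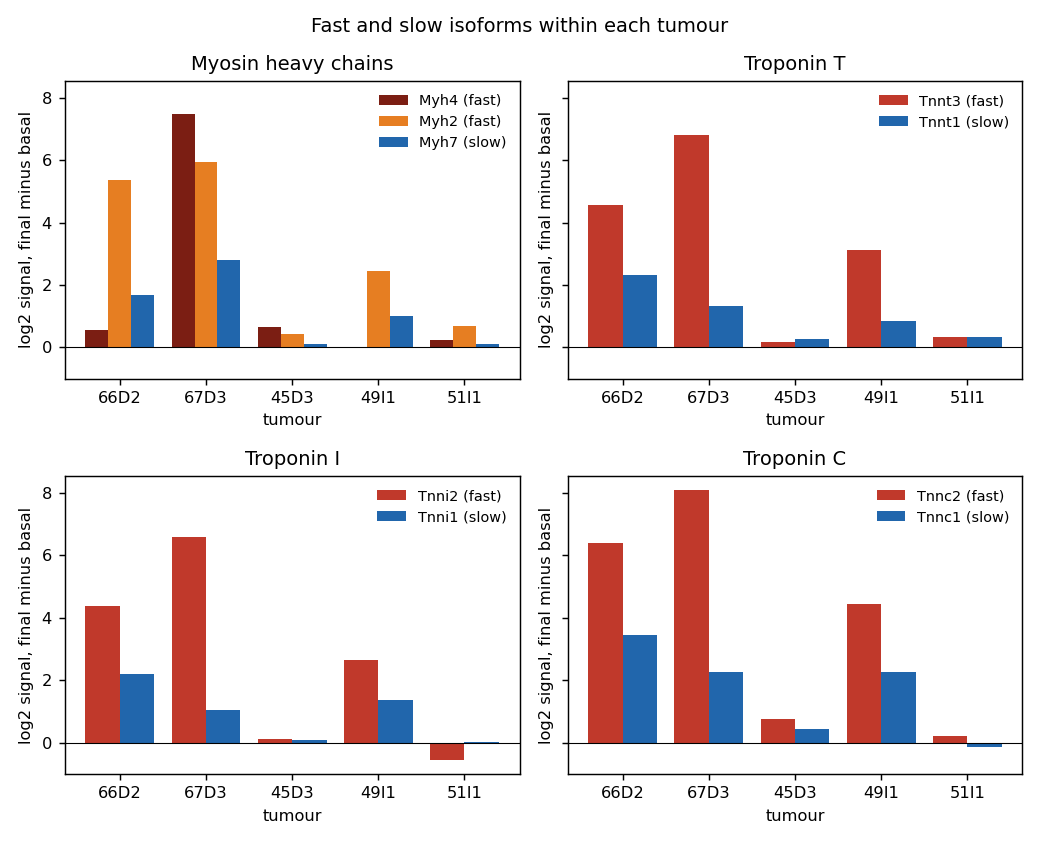
Difference in log2 RMA signal, final minus basal (y axis), of fast (red and orange) and slow (blue) isoforms of the myosin heavy chain and of troponins T, I and C within each of the 5 tumours (x axis). Myh4 stands out in 67D3 alone, and the slow troponins have their largest bars in 66D2 while the fast ones have theirs in 67D3.

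Fast and slow genes were then compared by their differences within each tumour, since levels of unlike probe sets cannot be set against each other. Differences avoid this only in part. Where the basal signal is dim, as 30 of the 40 basal means are, a difference still depends on how bright the probe set is. In 67D3 the median difference was 6.58 over the 11 fast genes and 1.60 over the 6 slow genes, which puts fast above slow by 4.98. In 66D2 the 2 medians were 2.56 and 2.26, a gap of 0.31, and in 49I1 they were 1.14 and 0.93, a gap of 0.21. In 45D3 and 51I1 all 4 medians lay between -0.06 and 0.43. Gene by gene, 10 of the 11 fast genes differed more in 67D3 than in 66D2, Myh1 being the exception, whereas 4 of the 6 slow genes (Myl2, Tnnt1, Tnni1 and Tnnc1) differed more in 66D2. Of the 23 genes used by either fibre type, 20 differed more in 67D3, the exceptions being Acta1, Actn2 and Des.

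Over the 5 tumours the fast genes had a median of 2.22 and the slow genes of 1.03, a gap of 1.19. The gap was 0.21 without 67D3, so the average rests on that tumour. Held at the dim cutoff, the gap was 4.31 in 67D3, 1.38 in 66D2 and 0.59 in 49I1, which is larger than unheld in 66D2 and 49I1 because slow genes lose more of their range to the cutoff. In 66D2, 67D3 and 49I1 the difference of the fast troponin exceeded that of its slow counterpart in all 3 matched pairs. The gap was 2.24, 5.49 and 2.27 for Tnnt3 over Tnnt1, 2.17, 5.55 and 1.27 for Tnni2 over Tnni1, and 2.93, 5.84 and 2.18 for Tnnc2 over Tnnc1. The heavy chain pair, Myh4 over Myh7, had gaps of -1.13, 4.69 and -0.98, with Myh4 below the dim cutoff in 66D2 and 49I1 and Myh7 below it in 49I1. The other fast chain, Myh2, differed by 5.38, 5.94 and 2.45 in these tumours, more than Myh7 in each (1.67, 2.79 and 1.0). With 1 pair of arrays per tumour these gaps carry no error of their own, and differences between tumours were not tested. The gaps between genes also depend in part on the brightness of each probe set.

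**Figure D5:**
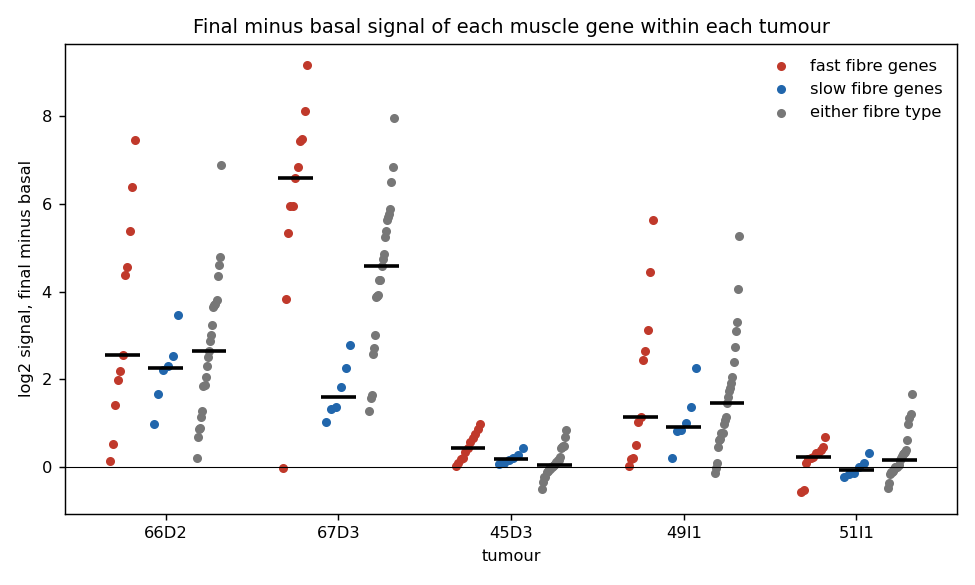
Difference in log2 RMA signal, final minus basal (y axis), of each of the 40 genes in each tumour (x axis), with fast fibre genes in red, slow in blue and genes of either type in grey, and black bars at the medians. Fast genes other than Myh1 lie above slow genes in 67D3 (medians 6.58 and 1.60) and overlap in 66D2 (2.56 and 2.26).

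At the Z disc, where thin filaments are anchored, and along the titin scaffold, 11 genes were measured, and 7 of them (Actn2, Tcap, Pdlim3, Neb, Ttn, Myom1 and Capn3) were higher at an unadjusted p under 0.05 without the filter, where 3% of all probe sets were. Actn2, an alpha-actinin of all fibre types, had 9.0, 7.83, 4.07, 6.97 and 4.11 in final arrays, against 4.40, 3.92, 3.99, 4.24 and 4.10 in basal arrays. Its fast counterpart Actn3 differed by 2.19 in 66D2 and 7.43 in 67D3, the reverse order of Actn2 (4.60 and 3.92). Tcap, which caps titin, had 8.53, 10.13, 4.73, 7.72 and 4.59 in final arrays, against 4.73, 4.89, 4.76, 4.61 and 4.59 in basal arrays, again with 45D3 and 51I1 at biopsy level. Neb, the ruler protein nebulin, differed by 2.37 on its brightest probe set, but by -0.08 and 0.31 on its others, which were dim in every array. Ttn, the spring titin, differed by 1.98, Myom1 of the M band by 1.01, and Ldb3 and Myoz1, further Z-disc proteins, by 1.0 and 1.66. The last pair differed most in 67D3, where Ldb3 differed by 3.88 and Myoz1 by 5.63, against 0.21 and 1.88 in 66D2. On the probe set used, Ldb3 averaged 0.28 without 67D3. This depends on the probe set. In 66D2 the other Ldb3 probe sets had 5.94, 5.18, 4.39, 3.48 and 3.79 in the final array, against 4.43, 3.71, 3.48, 3.75 and 3.63 in the biopsy.

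Pdlim3, a Z-disc protein that smooth muscle also makes, had 8.77, 8.70, 6.96, 7.11 and 6.29 in final arrays, against 6.12, 5.97, 6.52, 5.38 and 5.07 in basal arrays. Every tumour had the higher signal at the end, yet the groups overlapped, as the final array of 51I1 lay below the biopsy of 45D3. It differed by 1.75 (SE 0.35, limma adjusted p = 0.413). Capn3, the muscle calpain, had 6.0, 6.19, 5.30, 6.83 and 7.37 in final arrays, against 5.12, 4.54, 4.81, 6.04 and 5.70 in basal arrays, a difference of 1.09 (SE 0.20, limma adjusted p = 0.413). Its highest final signal was in 51I1, where Myl1, Tnnc2 and Ckm were dim, and its correlation with the median of the other members was 0.30 over the 10 arrays, the second lowest of the 40 genes, whereas that of Pdlim3 was 0.87. Des, the intermediate filament desmin of all muscle types and the brightest gene of this role, had 8.94, 9.52, 7.08, 8.67 and 8.31 in final arrays, against 6.43, 8.24, 7.56, 7.21 and 8.46 in basal arrays, with 3 of 5 tumours higher.

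Of the 6 genes that handle calcium, 5 were higher at an unadjusted p under 0.05 without the filter (3% of all probe sets). Atp2a1, the calcium pump of fast fibres, had 8.63, 12.11, 7.04, 7.58 and 6.13 in final arrays, against 6.07, 6.78, 6.82, 6.44 and 5.68 in basal arrays. Its difference was 1.94 (SE 0.73, limma adjusted p = 0.593), and only 66D2, 67D3, 45D3 and 49I1 exceeded the highest biopsy, 45D3 by a small margin. Casq1, the calcium buffer calsequestrin, Ryr1, the release channel, Trdn, which links the 2, and Cacna1s, the voltage sensor, differed by 2.21, 1.60, 1.77 and 0.66. Pvalb, the calcium buffer parvalbumin of the fastest fibres, was the sixth and differed by 5.94 in 67D3, 2.0 in 66D2 and 1.04 in 49I1, with a mean of 1.88 that did not reach an unadjusted p of 0.05. Without 67D3 the mean differences were 1.09 for Atp2a1 and 0.87 for Pvalb.

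The 7 energy genes supply adenosine triphosphate to the fibre, and Ckm, Mb and Ampd1 were higher at an unadjusted p under 0.05 without the filter (3% of all probe sets). Ckm, muscle creatine kinase, had 8.80, 12.07, 4.64, 6.02 and 4.09 in final arrays, against 4.46, 4.13, 3.95, 4.42 and 4.14 in basal arrays. Mb, the oxygen store myoglobin, had 9.31, 10.43, 4.48, 7.72 and 3.78 in final arrays, against 4.53, 3.94, 4.0, 3.67 and 3.88 in basal arrays. Eno3, the muscle enolase and the brightest of the role, had 7.72, 11.05, 6.01, 6.95 and 6.57 in final arrays, against 5.86, 6.46, 6.35, 5.97 and 6.36 in basal arrays. Mb was above 7 in all 3 tumours with muscle signal, while Ckm was far higher in 67D3 than in 49I1. Ckm differed by 2.90 (SE 1.14, limma adjusted p = 0.605) and Mb by 3.14 (SE 0.99, limma adjusted p = 0.579). Without 67D3 the difference of Ckm was 1.65. The glycolytic genes Pygm (glycogen phosphorylase) and Pgam2 (muscle phosphoglycerate mutase), with Ckmt2, the mitochondrial creatine kinase, differed most in 67D3, by 5.88, 5.76 and 4.27. In 66D2 they differed by 2.06, 1.14 and 0.90, and in 49I1 by 1.09, 0.11 and -0.02. Ampd1, muscle AMP deaminase, differed by 3.64 in 66D2, 5.37 in 67D3 and 0.79 in 49I1.

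The members followed each other closely. Over the 10 arrays the median Pearson correlation of the 780 pairs of members was 0.874, from -0.319 to 0.999, and 89.5% of pairs were above 0.5. These values are a description: the pairs share the same 10 arrays and 5 tumours. Outside the list, the 10 genes nearest to the member median were Cmya5, Mypn, Trim63, Myom2, Myot, Cacng1, Sh3bgr, Usp13, Smpx and Abra, with correlations between 0.984 and 0.996. Of these, Cmya5, Mypn, Myom2, Myot and Smpx encode sarcomere or costamere proteins, Trim63 a ubiquitin ligase of muscle and Cacng1 a subunit of the muscle calcium channel.

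Further muscle genes were taken from lists by function. Counts at an unadjusted p under 0.05 in these lists come from the filtered limma fit, in which 3.43% of all probe sets were higher and 4.59% lower, and are not read as support. Of 30 other structural genes with a row, 28 had a higher mean in final arrays, where 46.7% of all genes had. Their median difference was 0.64 over tumours and 1.02, 1.32, 0.03, 0.56 and 0.06 in 66D2, 67D3, 45D3, 49I1 and 51I1. Of the 12 of them that were tested, 2 were higher at an unadjusted p under 0.05, Nrap by 0.96 and Ankrd23 by 1.92, both with basal means below the dim cutoff, 0 lower, and 0 passed after adjustment in limma. Csrp3, the muscle LIM protein, had 8.72, 6.13, 4.18, 6.66 and 4.17 in final arrays, against 4.35, 3.61, 3.84, 3.99 and 3.97 in basal arrays. Myoz2, a Z-disc protein of slow and cardiac muscle, had 8.14, 5.57, 3.46, 5.38 and 3.55 in final arrays, against 3.85, 3.38, 3.41, 3.56 and 3.06 in basal arrays. Both had their highest signal in the final array of 66D2, as the slow troponins had, and both were picked after their values were seen. Other genes of this list had theirs in the final array of 67D3, such as Myot (8.23), Ankrd23 (8.85), Cmya5 (8.22) and Myom2 (8.72). Of the 20 other calcium and excitation genes 16 had a higher mean (median 0.32), with 1 of 6 tested ones, Sln (sarcolipin), higher at that p. Of the 13 other energy genes 9 had a higher mean (median 0.20), with 1 of 9 tested ones, the muscle cytochrome oxidase subunit Cox6a2, higher at that p. Sln and Cox6a2 too had basal means below the dim cutoff and were kept through their final signals.

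Most genes of muscle development were dim. Among 5 myogenic regulators with a row, Myod1 and Mstn stayed below the dim cutoff in all 10 arrays, Myf6, the regulator of mature fibres, exceeded it in the final arrays of 66D2 (5.46) and 67D3 (5.73), Myog (myogenin) exceeded it in the final arrays of 66D2 (5.26) and 49I1 (5.19), and Mef2c, also made by other cell types, was the 1 tested gene and was higher at an unadjusted p under 0.05. Myh3, the embryonic myosin heavy chain, had 5.91, 3.49, 3.79, 5.93 and 3.77 in final arrays, against 4.01, 3.89, 3.91, 3.61 and 3.75 in basal arrays. It stood above the cutoff in the final arrays of 66D2 and 49I1 and not in 67D3, which had the highest Myh2 and Myh4 signals. Of 6 cardiac markers Myh6, Nppa and Myl7 stayed below the cutoff in every array, and Tnni3 and Nppb exceeded it in basal arrays alone, up to 5.30 and 5.92. Tnnt2, the cardiac troponin T, was above it in all 10 arrays, with 9.07, 6.76, 5.98, 6.95 and 6.59 in final arrays, against 8.28, 6.56, 7.98, 6.33 and 6.21 in basal arrays. The median difference of the 6 was -0.12.

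Markers of other cells gave the setting of these values. Luminal epithelium, which defines the labelled tissue, was present throughout: 8 to 10 of its 10 markers were above BioB in final arrays and 8 to 10 in basal arrays, and its median difference was 0.05. Smooth muscle and myoepithelial markers differed by -0.03 in the median, with 5 of 11 higher, and by -0.73 in 67D3, where skeletal muscle genes were highest. Fibroblast and collagen markers were higher in 9 of 9 by their means, with medians of 1.38, 1.10, -1.03, 0.73 and 0.94 in 66D2, 67D3, 45D3, 49I1 and 51I1, and adipocyte markers in 9 of 10, with medians of 0.30, 1.93, -1.40, 0.13 and 3.56. Fat markers were thus furthest apart in 51I1, where muscle genes were not. The log2 of their summed signals ran from 13.24 to 15.70 in final and from 13.41 to 14.81 in basal arrays for fibroblasts, and for adipocytes from 10.82 to 13.72 in final and from 10.56 to 11.56 in basal arrays, of which Lep alone never exceeded the dim cutoff. Endothelial markers were higher in 8 of 9 (median 0.43) and nerve markers in 5 of 5 (median 0.22), where 46.7% of all genes had a higher mean. In the same order of tumours the medians were 1.11, 0.56, -0.90, -0.16 and 1.47 for endothelium and 0.63, 0.39, -0.54, 0.34 and 0.36 for nerve. At an unadjusted p under 0.05 the fat genes Fabp4 and Dgat2 and the endothelial gene Vwf were higher, and 0 genes of these lists passed after adjustment in limma. The part of these cells in the muscle result was not tested.

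The array medians over tested probe sets lay between 7.75 and 7.80 in final and between 7.67 and 7.79 in basal arrays. GAPDH lay between 12.90 and 13.19 in final arrays and between 12.29 (45D3) and 13.32 (66D2) in basal arrays. The excess of the 3′ over the 5′ hexokinase probe set, a sign of shortened RNA, lay between 0.89 and 1.10 in final and between 0.97 and 2.36 in basal arrays, highest in the biopsies of 45D3 (2.36) and 67D3 (2.03). Its part in the muscle result was not tested. The median signal over the 40 genes was 7.52, 9.28, 4.55, 5.97 and 4.13 in final arrays and lay between 3.99 and 4.39 in basal arrays.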

How the data were processed

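Total RNA of 10 samples was hybridised to whole-genome Affymetrix rat arrays. The authors normalised the intensities by RMA, per the submitters' processing notes, and the deposited values were read as log2 signal from their range. The table held 31099 probe sets, 57 of them controls, so these are values before the authors' filter, and no read depth exists. Symbols came from GEO's platform annotation, which can be old: 20826 probe sets had 1 symbol, 436 several and 9780 none. The dimmest 40% of the 31042 other probe sets by mean over the 10 arrays were left out.

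Final minus basal was fitted over all 18625 probe sets kept with limma 3.58.1 in R 4.3.3 (4 residual and 2.64 prior degrees of freedom, Benjamini-Hochberg adjustment), with the tumour as a block because labels give both samples of a tumour 1 identifier. Deviations from group means correlated within pairs at 0.72, 0.47, -0.16, 0.29 and 0.17 (mean 0.30). The random-block alternative used statmod 1.5.0. No 2 arrays held identical values, and 0 columns were unused. Each tumour is 1 animal's tumour as far as labels say, and 5 pairs limit the precision. The fit was tested on simulated data.

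The genes, lists and tests were chosen with earlier results of these data known, so no test of the list is given. Values in every array are given for the brightest gene of each role, for genes at an unadjusted p under 0.05 in the filtered fit, for matched fast and slow genes and for the gene least like the others, and the 10 most similar other genes are named. Other genes are named by single differences, and up to 4 of most further lists were chosen after their values were seen. More were named in this way of the other structural genes, the myogenic genes (5) and the cardiac genes (6). Signals below 5.14 were held there for the differences given as held at the cutoff.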

Additional observations from a re-analysis of the deposited data

Results flagged for a closer look

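In each group of 5 arrays, the gap of an extreme array to its nearest neighbour was set against the range of the group. Chance passes about 1 in 20 such groups, and 4 of the 80 groups checked passed. All 4 were the final array of 67D3 as the highest of its group. Myh4 was 10.34 there, against 3.54 in the next array, and Ldb3, on its brightest probe set, was 8.81, against 5.42. Ckmt2 was 7.99, against 4.54, and Pgam2 was 9.77, against 5.52. The probe set annotated to several myosin heavy chains, which the comparisons do not use, stood at 10.19 in the final array of 67D3, against at most 3.43 in basal arrays.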

How the results depend on the processing

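No member passed the adjusted threshold under any setting, the smallest limma adjusted p lying between 0.107 (without 45D3) and 0.994 (without 66D2). At an unadjusted p under 0.05, 14 members in the filtered fit became 5 to 18 when 1 tumour was left out, 27 without the filter, 3 with the dimmest 60% out, 2 with probe sets below BioB out and 2 by the methods' t-test. The counts under the 2 stricter filters differ in part because only 6 and 3 members remained to be tested there. The t-test still tested 23 members. The t-test used each gene's own variance on 4 degrees of freedom, whereas limma drew variances towards a common value. The SE of the t-test was 1.74 for Myl1 and 1.54 for Tnnc2, against 1.36 and 1.20 in limma. For Myh1 it was the smaller one, 0.05 against 0.09. The 27 members of the unfiltered fit became 10 to 31 when 1 tumour was left out and 4 by the methods' t-test, alternatives chosen after the data were seen. With no replicate block the 2 counts were 12 and 22, and with the replicate block as a random effect the first was 14. With the hexokinase covariate 2 probe sets of the whole table passed, none of them a member, and the cause was not tested. In the 328 refits of the 23 tested members none turned its sign. Changes of block, filter or test leave a mean paired difference as it is, so many of these refits could not turn it. Leaving out a tumour, the normalisations and the hexokinase covariate could, as could the mean over probe sets for genes with several. The median difference over the members ranged from 0.97 to 2.20 and the fast minus slow gap from 0.21 to 1.74 over the alternatives, with 28, 28 and 26 genes above BioB. Signals below the dim cutoff, which hold 30 of the 40 basal means, limit the size of each difference.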
